A study of Homo sapiens with 9 samples.

Results

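MAG, ALDH1A2, AIG1, RRP15, NFE4, UBAC1, FUBP1 and CTSH are 8 genes of K562 cells in which some transcripts from start to poly(A) site rose and others fell after imatinib. They are 8 of the 6911 genes to which a transcript isoform (TIF, a link of at least 4 read pairs between a cluster of start sites and a cluster of poly(A) sites) could be assigned. They were chosen from the contrast of imatinib with DMSO in these libraries, so the size and direction of their changes are given as a description, with no test. Members' molecules are the read pairs with both ends on the strand of the gene and within 2 kb of its Gencode v44 body, 26110 pairs in all, from 437 for MAG to 6539 for FUBP1. In the 4 libraries 3351643 to 4636566 (DMSO) and 2049853 to 3767303 (imatinib) pairs remained after filtering, and the 8 genes held 6775 and 9500 (DMSO) and 6126 and 3709 (imatinib) of them. Levels are given as CPM, the read pairs of a library scaled to a total of 1000000.

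K562 is an established line of chronic myeloid leukaemia cells that carries the BCR-ABL fusion kinase and expresses embryonic and fetal globins. Imatinib inhibits that kinase. Cells were exposed to 1 µM imatinib or to its DMSO solvent for 24 h, and TIF-Seq2, which reads both ends of single capped and polyadenylated RNA molecules, was run on 2 biological replicates of each. With 2 libraries a group, the p-values of fits across libraries measure the spread between these libraries only.

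A gene can yield different molecules from alternative promoters or from alternative poly(A) sites. A promoter inside an intron makes a transcript without the first exons, and with it without the first part of the coding sequence, while a poly(A) site inside an intron makes one without the last exons. Because both ends of one molecule were read together, each molecule could be placed at its start and its end at the same time, and the question was at which end the switch of each gene lay. In bulk RNA, fewer cells that make a transcript and less of it per cell cannot be told apart.

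A TIF was called changed where edgeR's quasi-likelihood test gave an adjusted p (Benjamini-Hochberg over all TIFs) below 0.05 and the log2 fold change exceeded 1.5 in size. Of 16020 TIFs tested in the whole series 9.83% were called, 5.74% as higher and 4.09% as lower, and 11 genes of 3671 with at least 2 tested TIFs (0.3%) had TIFs called in both directions, the 8 genes among them. The windows of the 8 genes held 126 TIFs, of which 65 passed the filter on low counts, 18 were called higher and 16 lower. Since the same contrast chose the genes, these counts support nothing. Calls in both directions were found in 1 of the 8 genes without DMSO replicate 1, in 2 without DMSO replicate 2, in 2 without imatinib replicate 1 and in 7 without imatinib replicate 2. The call nearest to the fold limit was NFE4's isoform from its second rising start to its intronic end, at a log2 fold change of 1.50. Widening the windows to 4 kb added 22 pairs for AIG1, 1 each for RRP15 and NFE4, and none for the others.

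For each gene, clusters of starts within 100 bp were joined into start regions and clusters of poly(A) sites likewise into end regions. The shift at an end of the gene is the share of its read pairs, in percentage points, that would have to move between regions to turn the mean DMSO distribution into the mean imatinib distribution. Pairs outside every region count as a further class in it. The shift was larger at the start in 6 of the 8 genes and larger at the end in NFE4 and FUBP1. NFE4 had 1 start region at this distance, so its start shift could count only pairs inside against outside that region. When only clusters within 10 bp were joined, it was larger at the start in 7 of 8, NFE4 included. The count was also 7 of 8 with the flanks of the gene bodies left out, where NFE4 had a start shift of 14.1 and an end shift of 11.7 points. That window drops the rising starts of NFE4, which lie before its annotated start. Its start shift there again counts only pairs inside against outside 1 region, so it says nothing on the switch between starts. In MAG, RRP15, AIG1, ALDH1A2 and CTSH the start shift was larger than the distance between the libraries of either condition. In UBAC1 it was not, and the shift at its start of 8.50 points lay below the 10.3 points between its imatinib libraries. It was 3.48 points without imatinib replicate 1 and 13.5 without imatinib replicate 2.

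**Figure D1:**
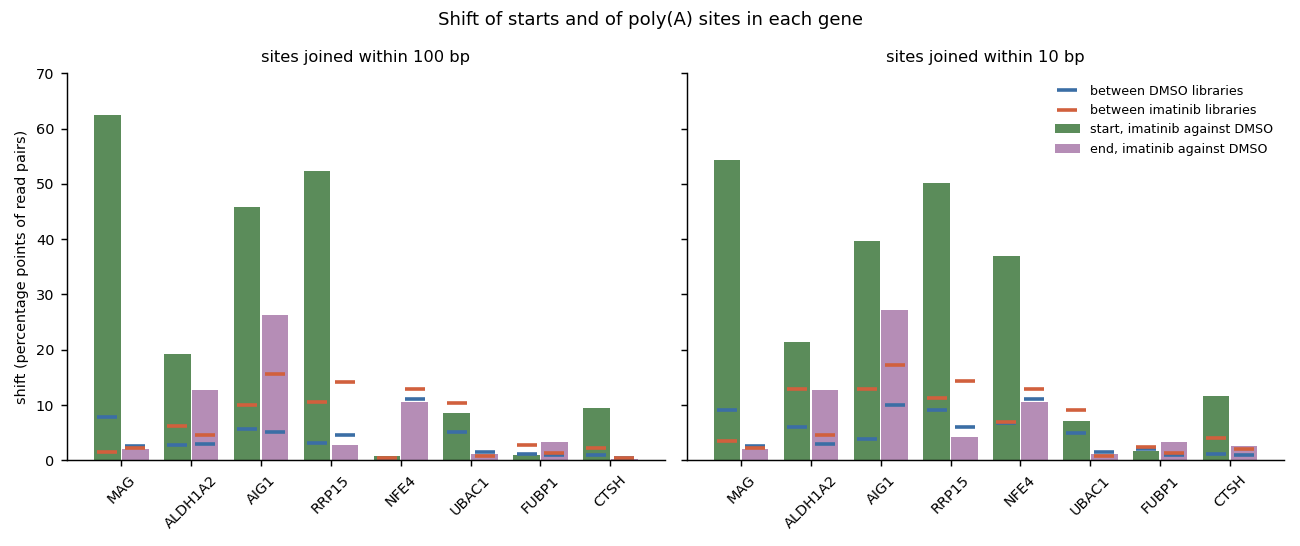
Shift of starts (green bars) and poly(A) sites (purple bars) between the condition means, in percentage points of each gene's read pairs, with sites joined within 100 bp (left) and 10 bp (right). Horizontal marks give the distance between the 2 DMSO (blue) and the 2 imatinib (orange) libraries. NFE4 has a start shift of 0.793 points on the left and 37.0 on the right, and the start bars of MAG, RRP15 and AIG1 stand above every mark.

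MAG encodes myelin-associated glycoprotein, a sialic acid-binding adhesion protein of myelin, and K562 molecules of it were short at the start (hg38, chr19:35292125-35313807, + strand). One start lay in intron 5 of the canonical transcript, 7.93 kb into the gene and with no annotated start near it, and 2 lay in intron 7 and exon 8. The bases around the start that rose and the start that fell most are given with the last base before the start and the first transcribed base in capitals.
MAG intron 5 start, chr19:35300042-35300101 (+ strand): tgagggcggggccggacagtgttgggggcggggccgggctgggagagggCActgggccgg
MAG exon 8 start, chr19:35310051-35310110 (+ strand): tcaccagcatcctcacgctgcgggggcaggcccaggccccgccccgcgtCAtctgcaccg
The intron 5 start made 7.41% and 5.19% of MAG pairs in the DMSO libraries and 68.9% and 68.7% in the imatinib libraries (mean 6.30% ± 1.56 and 68.8% ± 0.164, SD, n = 2). The exon 8 start made 18.5% and 13.0% in DMSO and 0.741% and 1.49%, a single pair each, in imatinib. The intron 7 start made 16.0% and 17.5% in DMSO against 3.70% and 4.48%. The conditions did not overlap at any of the 3 starts, and the rising start went from the least to the most used. The annotated end in exon 11 closed 96.5% ± 1.47 of the pairs in DMSO and 94.4% ± 0.555 in imatinib, so the switch of MAG lay at the start. The end shifted by 2.07 points, less than the 2.26 and 2.60 points between libraries of one condition.

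MAG was the shallowest of the 8 genes, with 81 and 154 pairs in DMSO and 135 and 67 in imatinib. The 95% Wilson interval of the intron 5 share ran from 3.44 to 15.2% in DMSO replicate 1 and from 56.8 to 78.5% in imatinib replicate 2. Intervals cover counting error only. Pairs that started outside the 3 regions made 61.2% ± 4.43 in DMSO and 26.0% ± 0.915 in imatinib (SD, n = 2). The isoform from intron 5 to the last exon spans 62.1% of the coding bases of the canonical transcript, and the one from exon 8 spans 22.4%. No annotated coding sequence of MAG lies whole inside either. The fitted log2 fold changes of these isoforms were 3.76 and -3.50.

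RRP15 encodes a nucleolar protein needed to mature the large ribosomal subunit (chr1:218285293-218337983, + strand). Its molecules started at the annotated promoter in DMSO, and in imatinib as often at a place in intron 2, 19.7 kb downstream, which is not an annotated start. Both starts are shown as above.
RRP15 annotated start, chr1:218285273-218285302 (+ strand): tgccaccggacgcaactgtCAggtgacgct
RRP15 intron 2 start, chr1:218304908-218304967 (+ strand): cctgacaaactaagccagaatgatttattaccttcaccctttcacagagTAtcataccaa
The annotated start made 85.2% and 82.1% of RRP15 pairs in DMSO and 27.1% and 35.7% in imatinib. The intron 2 start was seen in 0 and 4 pairs of the DMSO libraries and in 129 and 77 pairs of the imatinib libraries. Its share was 0.364% ± 0.516 in DMSO and 31.5% ± 6.03 in imatinib (SD, n = 2), and the 0 of 474 pairs allows a share of up to 0.633%. The start thus appeared in imatinib at about the share that the annotated start kept. Pairs that started outside every start region also gained, from 14.8% and 17.2% in DMSO to 31.6% and 30.7% in imatinib.

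Over all libraries the ends of RRP15 moved by less than its libraries differed. The 3 main end regions lay in exon 5, 6.41 to 6.71 kb short of the annotated end of the gene, and the most used one made 45.6% and 46.4% of pairs in DMSO and 46.3% and 47.0% in imatinib. The end shift was 2.78 points, below the 4.63 and 14.2 points between libraries, whereas the start shift was 52.3. The end shift depended on the processing and on single libraries, with 13.0 points when pairs before A-rich sequence were kept, 9.61 without imatinib replicate 1, 5.46 without imatinib replicate 2 and 4.39 without DMSO replicate 1. It stayed below the start shift in each of these settings. All 3 isoforms from the intron 2 start had fitted log2 fold changes of 4.99 to 6.73, which depend on the prior count since DMSO held 1 or 2 pairs of each, and the 3 from the annotated start of -1.88 to -0.92. Smaller start regions lay on both sides of the intron 2 start, and their 4 isoforms of at least 4 pairs were seen in imatinib alone. The isoform from the downstream one to the last end had 0 pairs in DMSO and 12 in imatinib, at least 5.49-fold higher with 3 pairs set as the floor over the DMSO libraries. Isoforms from intron 2 span 52.1% of the canonical coding bases, those from the annotated start all of them.

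AIG1, a membrane hydrolase of fatty acid esters first found as an androgen-induced gene, spans 281 kb (chr6:143060496-143341058, + strand) and moved at both ends. In DMSO most molecules began in intron 2, 104 kb into the gene, and in imatinib the annotated start was used most. The starts are followed by the last 30 bases of 3 of the ends up to the last transcribed base, with AATAAA, the signal for cleavage and polyadenylation, in capitals.
AIG1 annotated start, chr6:143060869-143060898 (+ strand): gcgcctccctcacgcccgcCCtccttgccg
AIG1 intron 2 start, chr6:143164821-143164880 (+ strand): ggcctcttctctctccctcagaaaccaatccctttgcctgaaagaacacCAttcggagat
AIG1 intron 3 end, chr6:143187899-143187928 (+ strand): gtgttggatgaacatgaatttttaacctcc
AIG1 last exon end, chr6:143339989-143340018 (+ strand): tcaagaaagAATAAAagtttattgcacttc
AIG1 last exon end further downstream, chr6:143340273-143340302 (+ strand): atgctgactAATAAAgacaaagccaccctg
The annotated start made 8.50% and 7.56% of AIG1 pairs in DMSO and 44.6% and 39.0% in imatinib. The intron 2 start made 74.8% and 80.4% in DMSO and 26.8% and 36.8% in imatinib. Neither start overlapped between conditions, and their order turned round. Every isoform from intron 2 that passed the filter was lower in imatinib, with fitted log2 fold changes of -3.27 to -1.28. The 2 main isoforms from the annotated start to the last exon were higher, at 1.26 and 1.76.

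The main ends of AIG1 in intron 3 lost share and ends in the last exon gained share. The gene as a whole was lower in imatinib, at 228 and 231 CPM in DMSO and 86.3 and 88.8 in imatinib. A gain in share is therefore not a gain in level. The first intron 3 end made 21.4% and 25.0% of pairs in DMSO and 13.5% and 7.14% in imatinib, and the second 14.1% and 12.4% against 2.77% and 8.24%. The last exon ends made 33.9% and 34.2% against 40.9% and 50.0%, and, 284 bases further on, 7.45% and 8.02% against 20.3% and 18.1%. An end in intron 1 gained share too, with 4.18% and 3.08% in DMSO and 7.69% and 5.49% in imatinib. The isoform from the annotated start to that end had a fitted log2 fold change of -0.27. The end shift was 26.3 points beside a start shift of 45.8. Among molecules from the intron 2 start alone the end shift was 9.63 points, and among molecules with the most used end the start shift was 48.0. The ends of the imatinib libraries lay 15.7 points apart, but over molecules of all starts, which is not a like measure. With sites joined within 10 bp the order turned round. The end shift within the most used start cluster was then 18.2 points, beside 17.2 between the imatinib libraries over all starts. An isoform from intron 2 to intron 3 spans 14.3% of the canonical coding bases and one from intron 2 to the last exon 58.4%, while isoforms from the annotated start to the last exon span all of them.

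ALDH1A2 encodes a retinaldehyde dehydrogenase that makes retinoic acid (chr15:57953424-58497866, - strand). It moved at both ends, and over all its pairs the shift was larger at the start. Its annotated start lost share, and a start in intron 2, 51.6 kb downstream, gained. That start coincides with the annotated start of a shorter transcript. Molecules ended either in intron 7 or at the annotated end in exon 13, and the sequences of the starts and ends follow.
ALDH1A2 annotated start, chr15:58065702-58065731 (- strand): cgagcgcgcccccgggccgCGgaccgcgcg
ALDH1A2 intron 2 start, chr15:58014092-58014151 (- strand): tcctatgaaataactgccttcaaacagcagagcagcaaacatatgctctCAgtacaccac
ALDH1A2 intron 7 end, chr15:57990217-57990246 (- strand): aAATAAAaacatatttacaacttgcttacc
ALDH1A2 exon 13 end, chr15:57953430-57953459 (- strand): tgtgctagcAATAAAgcatttatattgtgt
The annotated start made 67.1% and 69.9% of pairs in DMSO and 52.4% and 46.3% in imatinib. The intron 2 start made 0.480% and 0.149%, which is 2 pairs and 1 pair, in DMSO and 7.26% and 11.1%, 18 and 12 pairs, in imatinib. Pairs that started outside both regions made 32.4% and 29.9% in DMSO and 40.3% and 42.6% in imatinib, so they gained 10.3 points on average where the intron 2 start gained 8.87. The conditions did not overlap at either start. The gene as a whole was lower in imatinib, at 124 and 145 CPM in DMSO and 65.8 and 52.7 in imatinib, so the rising isoform rose against the gene. Its fitted log2 fold change was 3.29, that of the isoform between the annotated start and intron 7 was -2.23, and that of the full-length isoform was -0.99.

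The intron 7 end made 51.8% and 48.8% of ALDH1A2 pairs in DMSO and 41.5% and 37.0% in imatinib. The exon 13 end made 38.4% and 39.1% against 46.8% and 49.1%. The end shift of 12.7 points exceeded the 2.99 and 4.54 points between libraries, and was smaller than the start shift of 19.2. Among molecules from the annotated start alone, however, the end shift was 23.6 points. Among molecules with the most used end, in intron 7, the start shift was 33.5 points. The isoform from the annotated start to intron 7 made 38.6% ± 2.01 in DMSO and 17.2% ± 5.95 in imatinib (SD, n = 2). The full-length isoform kept 19.7% and 25.0% against 23.8% and 26.9%, which overlap. Isoforms to the intron 7 end span 51.4% of the coding bases from the annotated start and 37.1% from intron 2.

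**Figure D2:**
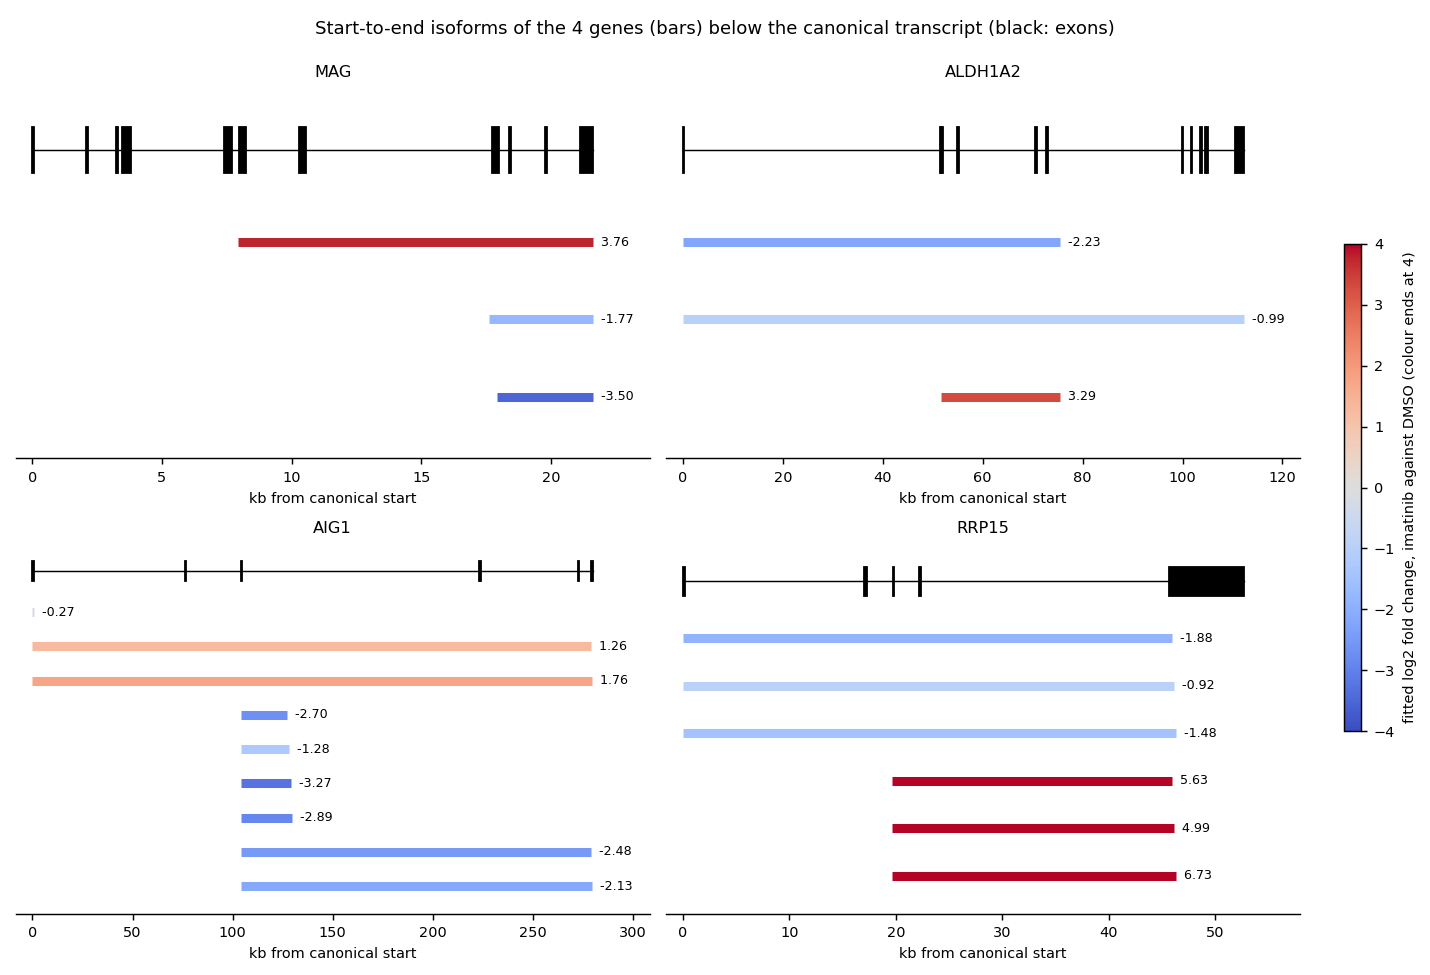
Isoforms of MAG, ALDH1A2, AIG1 and RRP15 that passed the filter on low counts, drawn as bars from start to poly(A) site in kb from the canonical start, below the canonical transcript (black boxes are exons). Colour and the number at each bar give the fitted log2 fold change of imatinib against DMSO, and colours end at 4. In MAG red and blue bars differ at their left ends only, in RRP15 their right ends lie within 298 bases of each other, and in AIG1 the red bars are the longest of the 9.

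NFE4 was named for an erythroid factor that acts with TFCP2 at the fetal globin genes, and Gencode v44 lists it as a long non-coding RNA (chr7:102973483-102988856, + strand). All its main starts lay within a stretch of under 250 bases, so they form 1 region at 100 bp, and the shares of single starts are given with clusters joined within 10 bp. The stretch is printed with the 4 main start clusters in capitals, the first cluster at the left.
NFE4 start sites, chr7:102973304-102973546 (+ strand): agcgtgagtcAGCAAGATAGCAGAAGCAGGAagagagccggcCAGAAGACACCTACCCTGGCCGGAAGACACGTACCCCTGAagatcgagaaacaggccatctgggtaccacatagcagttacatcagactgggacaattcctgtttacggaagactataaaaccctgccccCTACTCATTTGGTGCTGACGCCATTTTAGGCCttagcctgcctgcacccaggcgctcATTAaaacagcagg
The upstream clusters lie 161 and 136 bases before the annotated start and rose, and the downstream clusters lie in exon 1 and fell. The first made 11.2% ± 1.05 of NFE4 pairs in DMSO and 28.5% ± 3.96 in imatinib (SD, n = 2). The second made 22.8% and 27.2% against 45.1% and 43.9%. The third, the most used in DMSO, made 39.4% and 35.5% against 10.8% and 14.7%. The fourth was seen in 101 and 81 pairs in DMSO and 24 and 13 in imatinib. No cluster overlapped between conditions, and the start shift of 37.0 points stood beside 6.66 and 6.89 points between libraries of one condition. Of the 4, only the third start has TATAAA within 40 to 20 bases before it, a sequence found at 1.22% of the 15953 start clusters of all genes.

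NFE4 molecules ended mostly in intron 1, 5.32 kb after the start, or at the annotated end in exon 3. Another end, also in intron 1 and further downstream, made 10.4% and 11.6% of pairs in DMSO and 8.58% and 6.80% in imatinib, which do not overlap. The 10.5 points by which the ends shifted were fewer than the 11.2 and 13.0 points between libraries of one condition, and at the first intron 1 end the shares of 34.0% and 43.5% in DMSO and 54.7% and 43.5% in imatinib met. Without one library the end shift ran from 5.05 points (without imatinib replicate 1) to 16.1 (without imatinib replicate 2). With starts pooled, no isoform of NFE4 that passed the filter had a negative fitted change. With starts apart, the isoform from the third cluster to exon 3 fell from 26.1% and 20.5% of pairs to 4.56% and 8.91%, and the one from the first cluster to exon 3 went from 4.65% and 3.43% to 11.7% and 13.2%. As a gene NFE4 had 404 and 320 CPM in DMSO and 547 and 553 in imatinib.

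CTSH encodes cathepsin H, a lysosomal cysteine protease that trims proteins from their amino end (chr15:78921058-78949574, - strand). The gene as a whole fell, at 320 and 412 CPM in DMSO and 219 and 190 in imatinib. A start in intron 3, 7.82 kb downstream of the canonical start and 9 bases from an annotated one, was nearly lost, and a start 55 bases upstream of the canonical one gained.
CTSH upstream start, chr15:78945092-78945121 (- strand): ccgccccgcgctcgctccgCCccttcgcgc
CTSH intron 3 start, chr15:78937215-78937274 (- strand): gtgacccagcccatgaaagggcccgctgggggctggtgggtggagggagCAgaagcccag
The intron 3 start was seen in 56 and 92 pairs in DMSO and in 1 pair and 0 pairs in imatinib, which is 5.22% and 4.82% of CTSH pairs against 0.121% and 0, where the 0 of 389 pairs allows a share of up to 0.771%. The upstream start made 2.05% and 1.73% in DMSO and 10.4% and 9.25% in imatinib. The conditions did not overlap at either. The canonical start made 61.5% and 62.0% against 64.7% and 66.3%, and a start 41 bases downstream of it 18.2% and 18.7% against 11.3% and 13.6%. In every library at least 99.0% of the pairs ended in the same end region, and the end shift of 0.285 points was below the 0.390 and 0.457 points between libraries. The isoform from intron 3 spans 77.2% of the coding bases.

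UBAC1, a subunit of a ubiquitin ligase complex that acts with RNF123 on the cell cycle inhibitor CDKN1B, had a rising start inside its window and a falling end beyond it (chr9:135932969-135961373, - strand). As a whole, its start shift of 8.50 points did not exceed the 10.3 points between its imatinib libraries. With sites joined within 10 bp these values were 7.08 and 9.17 points. The isoform that rose started in intron 1, 1.36 kb downstream of the canonical start. The isoform that fell ran 8296 bases past the annotated end and lies outside the window used to choose the read pairs. Its end and the rising start are shown.
UBAC1 intron 1 start, chr9:135960008-135960067 (- strand): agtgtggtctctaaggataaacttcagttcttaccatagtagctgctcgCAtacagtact
UBAC1 end past the gene, chr9:135924673-135924702 (- strand): ctcaatacaaaAATAAAaaaaattgcctct
The intron 1 start was seen in 10 and 1 pairs in DMSO and 73 and 30 in imatinib, which is 1.39% and 0.107% against 6.87% and 4.11% of pairs. The isoform with the distant end held 26 and 37 pairs in DMSO and 6 and 4 in imatinib, with a fitted log2 fold change of -2.08. Of the molecules that began at its start cluster and ended at either place, 6.24% and 6.57% in DMSO and 1.04% and 0.913% in imatinib ran to the distant end. Inside the window 96.9% to 98.8% of pairs in each library had the annotated end in exon 10, and no isoform that passed the filter had a negative fitted change. Isoforms from the intron 1 start span 88.6% of the coding bases.

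FUBP1 encodes a protein that binds the far upstream element of MYC as single-stranded DNA, and was the gene in the set whose switch lay at the end (chr1:77944055-77979110, - strand). Nearly all molecules ended at a proximal site in the last exon, and the distal site 4.35 kb further on, which is the annotated end of the canonical transcript, gained. Both carry AATAAA.
FUBP1 proximal end, chr1:77948404-77948433 (- strand): gtgctttacAATAAAtgatatgaaacctcc
FUBP1 distal end, chr1:77944056-77944085 (- strand): ttcctcAATAAAtgtacattgatgactatt
The distal end made 0.846% and 0.514% of FUBP1 pairs in DMSO and 3.07% and 3.18% in imatinib, from 16, 14, 34 and 26 pairs. The proximal end made 96.9% and 96.5% against 93.1% and 94.2%. Neither overlapped. The end shift of 3.25 points exceeded the 0.896 and 1.38 points between libraries, and the start shift of 0.982 did not exceed its 1.15 and 2.78. Both ends leave the canonical coding sequence whole. Of 5 annotated coding sequences, molecules from the main start to the proximal end span 3 whole, and those to the distal end span 5. The TIF that was called lower ended at the proximal site and began at a small start cluster 15 bases downstream of the main one, with 37 and 50 pairs in DMSO and 6 and 8 in imatinib.

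**Figure D3:**
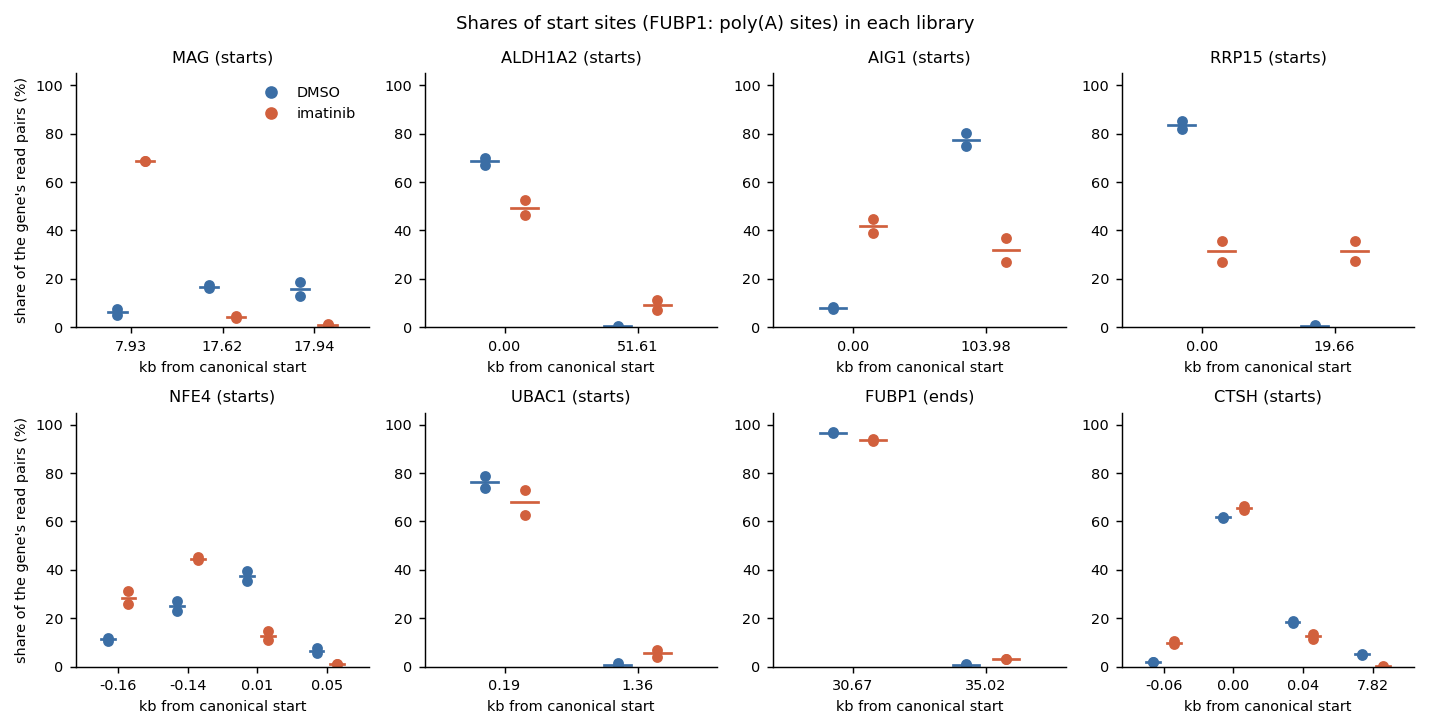
Share of each gene's read pairs (%) at its main starts, labelled by their distance in kb from the canonical start, in the 2 DMSO (blue) and 2 imatinib (orange) libraries, with a line at each mean. Starts of NFE4 and CTSH are kept apart at 10 bp except the intron 3 start of CTSH, and for FUBP1 the 2 poly(A) sites are shown. The imatinib points of MAG at 7.93 kb stand at 68.9% and 68.7% and those of RRP15 at 19.7 kb at 35.7% and 27.2%, where DMSO is near 0 for RRP15.

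The letters at these starts and ends were set beside those of all clusters. Of the 20 starts of the 8 genes examined, 17 had a pyrimidine (C or T) before and a purine (A or G) at the first transcribed base, which is 85.0%, beside 71.3% of the 15953 start clusters of all genes. The exceptions were the annotated starts of AIG1 and FUBP1 and the upstream start of CTSH. Of 17 ends examined, 16 had AATAAA or ATTAAA within their last 30 bases on the transcribed strand, beside 64.8% of the 30461 poly(A) clusters of all genes, and 13 of the 17 had AATAAA (76.5%, beside 49.1% of all). The first intron 3 end of AIG1 had neither. The sites examined were mostly picked from the main ones of each gene, while the shares beside them cover every cluster, rare ones included. The comparison is therefore not like for like. A match is a description of the letters and not a site shown to be used.

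**Figure D4:**
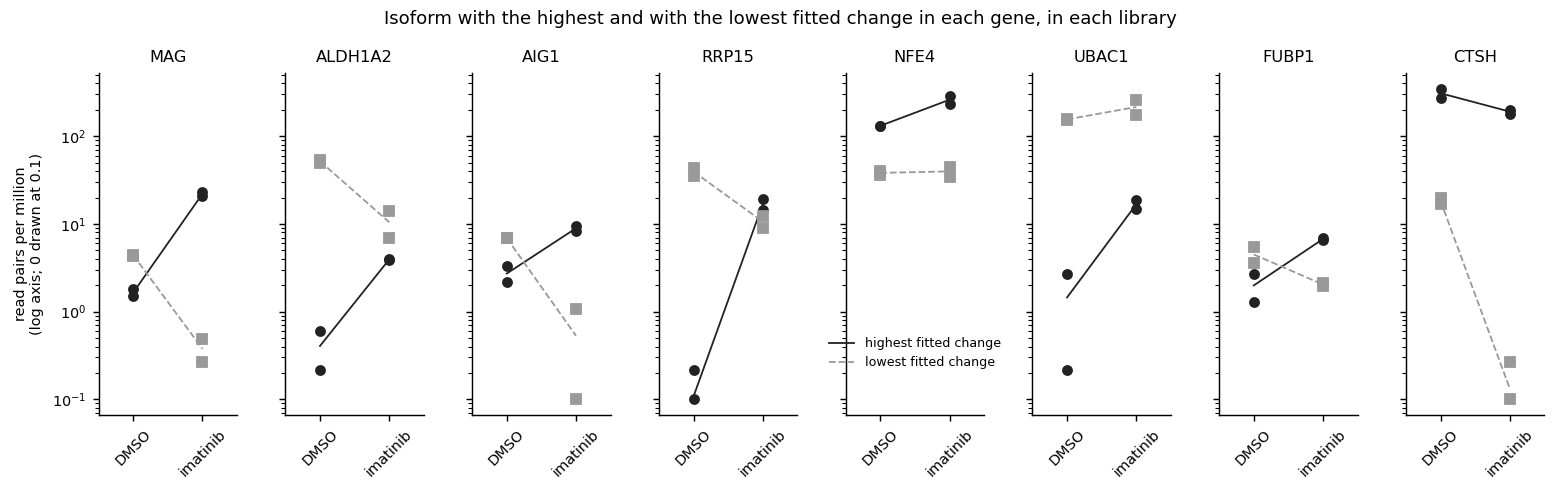
Level in CPM (log axis, 0 drawn at 0.1) of the isoform with the highest (black circles, solid line) and with the lowest (grey squares, dashed line) fitted change in each gene, with lines through the condition means. The lines cross in MAG, AIG1, RRP15 and FUBP1. In NFE4, UBAC1 and CTSH both lines run the same way when starts are joined within 100 bp.

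Start and end regions made 52 isoforms of at least 4 pairs over the 8 genes, of which 31 passed the filter on low counts (9.59% of such isoforms of all genes were called in either direction). In 5 of the 8 genes the highest and the lowest fitted change among them had opposite signs, and in NFE4, UBAC1 and CTSH they had the same sign. The median fitted log2 fold change of the 31 was -0.72, beside 0.01 over the 10044 isoforms of all genes. Summed over the TIFs of a gene, which hold only part of its pairs, the fitted values ran from -1.62 for AIG1 and -1.50 for ALDH1A2 to 0.68 for NFE4 and 0.95 for MAG. Over all its pairs MAG had 24.2 and 33.2 CPM in DMSO and 35.8 and 32.7 in imatinib, which overlap.

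Whether the choice of the end depends on the start was tested within DMSO alone, which the choice of the genes did not use by itself. Fisher's exact test (two-sided) compared the 2 most used start regions with the 2 most used end regions of each gene, with Benjamini-Hochberg adjustment over 491 genes, and 17.3% of them were called. The test pools the molecules of the libraries, so its p covers counting error only and not the spread between libraries. AIG1 was called. From its annotated start 94.7% of 57 DMSO molecules ended in the last exon rather than at the first end in intron 3, and from its intron 2 start 51.4% of 708 did (odds ratio 0.0588, exact test, adjusted p = 1.09e-10). The shares were 96.2% and 93.5% from the annotated start in the single DMSO libraries and 52.5% and 50.6% from intron 2, and in imatinib 96.6% and 100% against 45.7% and 67.6%. The order was thus the same in 4 of 4 libraries. FUBP1 was tested too and not called, with 14 of 3552 molecules from the main start and 0 of 20 from a start in exon 12 at the distal end (exact test, adjusted p = 1), where the 0 of 20 allows a share of up to 15.0%.

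With starts kept apart at 10 bp, a choice made after the values were seen, 5.87% of 1925 genes were called. Of the 8 genes 7 were tested there, and NFE4 was called. The AIG1 test at 10 bp compared 2 clusters of the intron 2 start with each other and was not called (odds ratio 1.59, exact test, adjusted p = 0.445). Of NFE4 molecules from the second cluster 34.0% of 603 ended in exon 3 rather than intron 1, and from the third cluster 70.2% of 939 (odds ratio 4.57, Fisher's exact test with Benjamini-Hochberg adjustment, adjusted p = 3.34e-42). The third cluster had the higher share in 4 of 4 libraries, with 74.4% against 35.8%, 65.9% against 32.5%, 48.0% against 34.4% and 64.7% against 43.97%. The first and the fourth cluster were not part of the test. The first sent 63 and 51 pairs to exon 3 and 61 and 109 to the first intron 1 end in DMSO, and 242 and 149 against 330 and 120 in imatinib. The fourth sent 61 and 41 pairs to exon 3 and 24 and 24 to that end in DMSO, and 12 and 5 against 9 and 8 in imatinib. ALDH1A2 had enough pairs from its intron 2 start only in imatinib, where that start is high, so its values are given with no test. There 55.0% of 140 molecules from the annotated start and 0 of 23 from intron 2, which allows up to 13.0%, ended in exon 13 rather than intron 7.

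**Figure D5:**
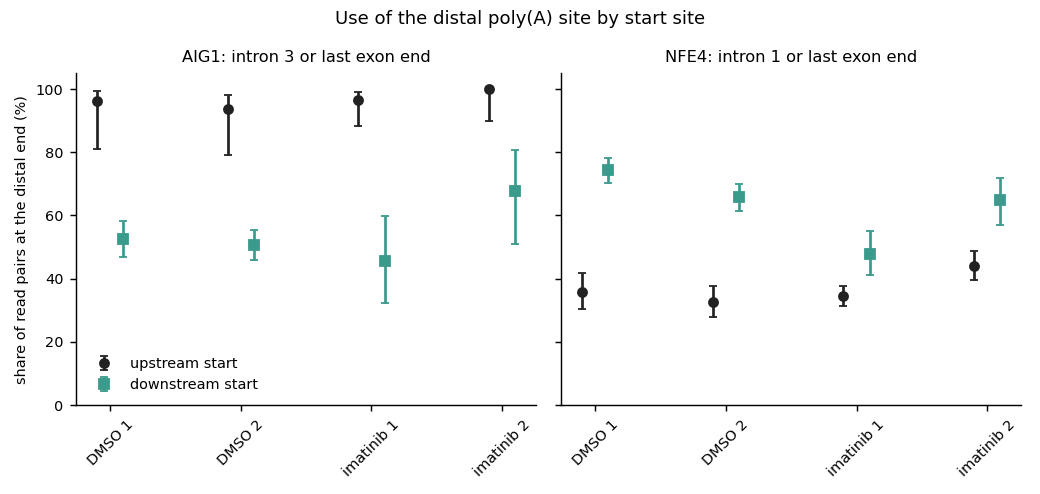
Share of molecules (%) that used the distal of 2 poly(A) sites, by start, in each library for AIG1 (regions joined within 100 bp) and NFE4 (10 bp), with 95% Wilson intervals. In AIG1 the upstream start (black) is above the downstream start (green) in all 4 libraries, and in NFE4 it is below in all 4.

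Over 1814 genes with at least 100 read pairs in TIFs in each library, the isoform shift between conditions had a median of 2.47 points, beside medians of 2.04 between the DMSO and 2.94 between the imatinib libraries. It was larger at the start than at the end in 24.3% of them. That share is not a like background for the 6 of 8 genes above. It rests on TIFs only, with no class for pairs outside the regions. Genes with 1 start region, such as NFE4, count in it with a start shift of 0. RRP15 and AIG1 had the largest isoform shifts with 49.1 and 48.1, NFE4 had 10.6, UBAC1 5.73, CTSH 3.49 and FUBP1 2.77 with sites joined within 100 bp, and MAG and ALDH1A2 were below the limit on pairs. The genes most like RRP15 and AIG1 by this measure were UBTF (43.2), C7orf50 (41.1), GATA2-AS1 (35.8), SEPTIN9 (35.4) and PCGF1 (34.9). In UBTF, C7orf50, SEPTIN9 and PCGF1 the shift lay at the start and in GATA2-AS1 at the end. LDHA and RPL31 were among the other genes with TIFs called in both directions.

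Relatives and partners of the 8 genes were tested as sums of their TIFs with edgeR (quasi-likelihood test, Benjamini-Hochberg adjustment over 5808 genes, with 13.5% called, 7.94% as higher and 5.6% as lower). Among 15 factors of ribosomal RNA processing, the pathway of RRP15, 12 were tested, 6 fell and none rose, and their median log2 fold change was -1.09 beside 0.02 for all genes. EBNA1BP2, which binds early large-subunit particles, went from 1338 and 1386 CPM in DMSO to 587 and 582 in imatinib (log2 fold change -1.22 ± 0.209 SE, edgeR adjusted p = 0.00818). RRP7A (-1.49 ± 0.285, adjusted p = 0.0116), NOP2 (-1.62 ± 0.334, 0.0157), RRP1 (-1.16 ± 0.289, 0.0312), PES1 (-1.08 ± 0.280, 0.0362) and RRP1B (-1.26 ± 0.339, 0.0410) fell too in the edgeR fit. In all 6 the DMSO and imatinib libraries did not overlap, which adds no support, since the same values gave the calls. The share of all genes without overlap was not counted.

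Among 4 genes tied to NFE4, 2 were tested and both rose. TFCP2 had 12 and 9 pairs in DMSO and 0 and 2 in imatinib, too few to be tested. HBE1, the embryonic globin, went from 949 and 794 to 2796 and 2819 CPM (1.68 ± 0.219, edgeR adjusted p = 0.00338), and HBG2, a fetal globin, from 2627 and 2276 to 5387 and 6018 (1.21 ± 0.208, edgeR adjusted p = 0.00817). Reads of HBG2 and its near-identical copy HBG1 cannot be split with certainty. Among the erythroid markers looked at, KLF1 and TFRC were also higher in both imatinib libraries than in both DMSO libraries, GATA1 overlapped, HBG1 had 8 pairs or fewer and TAL1 was at 0. Their part in the shares above was not tested. Among the markers of other cells, MS4A1, CD3E, CD14 and ALB were at 0, and EPCAM had 58.5 to 85.2 CPM.

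Of 11 relatives of CTSH 6 were tested, and CTSD (1.33 ± 0.332, edgeR adjusted p = 0.0317) and CTSL (1.03 ± 0.256, 0.0311), lysosomal proteases, rose while CTSH itself was lower. CTSC had a negative log2 fold change, as CTSH had, and was not called (-0.94 ± 0.313, edgeR adjusted p = 0.0804). CTSA, CTSB and CTSS had positive ones and were not called. Of 10 retinoid genes 4 were tested, and ALDH1A1, another retinaldehyde dehydrogenase, rose (1.06 ± 0.299, edgeR adjusted p = 0.0494), where ALDH1A2 was lower. RDH10 (-2.14 ± 0.808), RARA (-1.17 ± 0.572) and RDH11 (-0.72 ± 0.354) had negative log2 fold changes, as ALDH1A2 had, and were not called. The median of the tested retinoid genes was -0.95. Of 4 Siglecs, lectins of the family of MAG, CD33 was tested and fell (-1.50 ± 0.356, edgeR adjusted p = 0.0270). FUBP3 was the FUBP1 relative tested and had a log2 fold change of 0.23 ± 0.347 (edgeR adjusted p = 0.717). RNF123, CDKN1B and ADTRP, the AIG1 relative, had too few pairs to be tested. The ALDH1A1 call was lost with no filter on low counts (edgeR adjusted p = 0.0513), with the replicate number as a block (0.128), without DMSO replicate 1 (0.367), DMSO replicate 2 (0.191) or imatinib replicate 1 (0.0732). CTSD, CTSL, RRP1B and PES1 lost theirs with the block and without either DMSO library, RRP1B also with pairs before A-rich sequence kept and without imatinib replicate 2, and PES1 also without imatinib replicate 1. RRP1 lost its call with the block and without DMSO replicate 2, NOP2, HBG2 and CD33 without DMSO replicate 2, and RRP7A without DMSO replicate 1. EBNA1BP2 and HBE1 kept theirs in all 10 alternatives run. The number of relatives called was 12, and it was 6 without DMSO replicate 1, 3 without DMSO replicate 2 and 6 with the replicate number as a block.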

How the data were processed

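Libraries were taken as the labels give them, 2 of DMSO and 2 of imatinib. The authors trimmed reads with cutadapt, aligned both ends to hg38 with STAR 2.5.3a, kept unique pairs and removed duplicates by molecular identifier. The deposited values are raw counts of read pairs per combination of end positions. Pairs whose poly(A) site was followed by at least 7 A among 10 nt were left out, since they can stem from internal priming. Sites were normalized by a power law (exponent 1.25) and joined within 10 bp, and a TIF needed 4 pairs from 300 bp to 2 Mb apart. Fits used edgeR 4.0.16 (TMM, filterByExpr), with DESeq2 1.42.0 as an alternative, and Fisher tests scipy 1.17.1. Fits were checked on simulated data. Normalization, filter, block, A filter, joining distance, flanks and leaving out each library were varied.

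The 8 genes and the gene lists were chosen with earlier results of these data known. Regions with 5% of a gene's pairs in a library were described, relatives were named where they passed the test, and the 5 most similar genes by isoform shift. Libraries held 2263121 to 5135829 pairs before filtering. Long-read models were not used, since 0 of 44 overlapped the 8 genes, and the series' other libraries were not analysed here. Values of 3 genes are not reported here. Sequences were read from the hg38 genome.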

Additional observations from a re-analysis of the deposited data

How the results depend on the processing

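Counts over all TIFs and genes depended on the library left out and on the tool. Against 1575 TIFs called, 2579 were called with no filter on low counts and 1000 with DESeq2, and 710 to 2680 without one library (2680 without imatinib replicate 2, 710 without DMSO replicate 2 and 936 without DMSO replicate 1). Genes with calls in both directions numbered 19 with no filter, 5 with DESeq2 and 2 to 31 without one library (3 without DMSO replicate 1, 2 without DMSO replicate 2), against 11. With the replicate number as a block they were 5 (3 of the 8 genes among them), TIFs called 1089 and called relatives 6 of 12. Same-numbered libraries deviated in opposite ways (r = -0.307), the numbers do not pair the libraries, and with crossed pairs, chosen after seeing the data, 2203 TIFs and 23 genes were called. Relatives called without one library ranged from 3 to 17, with 6 without DMSO replicate 1 and 3 without DMSO replicate 2. Coupling was called for 34 genes without DMSO replicate 2 and 58 without DMSO replicate 1, and for 53 when all 4 combinations had to be at least 300 bp long, also chosen after seeing the data, against 85. The genes with the larger shift at the start numbered 6 to 6 of 8 without one library, and 7 without the flanks or with sites joined within 10 bp. Leaving out the flanks dropped the rising starts of NFE4. The AIG1 odds ratio kept its side of the threshold in 6 of 6 alternatives that compared the same starts and ends. Share changes were reversed in 2 of 126 alternative values, both with sites joined within 10 bp, where only the clusters at the most used start and end of an isoform are counted: 0.300 against -3.38 points for the NFE4 isoform to its end before exon 3, and 1.24 against -7.72 points for the main UBAC1 isoform. DESeq2 called 2 of the 8 genes in both directions. MAG, with 437 pairs, and rare isoforms of 1 or 2 pairs a library are limited by depth.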
